A study of Homo sapiens with 4 samples.

Results

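The citric acid cycle enzymes described here are 9 nuclear genes, CS, IDH3A, IDH3B, IDH3G, OGDH, SUCLG1, SUCLA2, FH and MDH2, chosen by name from the 16504 gene symbols of the table. All 9 were listed in the table, and all 9 reached the mean of 1 FPKM (a count of fragments divided by exon length and by the mapped reads of the library) that was required for a test. RNA-seq of 4 libraries labelled NB4, a cell line of human acute promyelocytic leukemia, was used to ask which genes respond to loss of CEBPG, a basic leucine-zipper factor of the C/EBP family. In the study, cells were infected with a lentiviral short hairpin RNA (shRNA) vector and selected with puromycin as stable lines. The 2 control libraries, titled NC, are labelled with CEBPG present, and the 2 knockdown libraries, titled CEBPG3, are labelled as CEBPG knockdown. The number in the knockdown title was read as hairpin 3 of the CEBPG hairpins in the study, which is an assumption, so the knockdown group stands for a single hairpin.

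The citric acid cycle runs in the mitochondrial matrix, where it oxidises the acetyl group of acetyl-CoA to carbon dioxide and passes the electrons to the respiratory chain as NADH and reduced flavin. Its intermediates also leave the cycle, as citrate for lipid synthesis and as 2-oxoglutarate and oxaloacetate for amino acids. Several of its enzymes are assembled from subunits encoded by separate genes, so the RNA of one subunit need not follow that of its partners.

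CEBPG, the targeted gene, was at 17.1 and 18.1 FPKM in the controls against 6.91 and 7.96 FPKM after knockdown, 42.2% of the control level (limma, adjusted p = 0.000836). FPKM values summed to between 345340 and 366139 in the 4 libraries, and read depth was unknown. The cell type label was compared with marker genes. All 10 erythroid markers, among them the globins and GATA1, were over 10 FPKM in every library. Of 10 promyelocyte and myeloid markers, 5 or 6 were under 1 FPKM and 2 or 3 over 10 FPKM in each library. LYZ lay between 15.0 and 20.1 FPKM and SPI1 between 15.2 and 17.2 FPKM. PRTN3, which encodes a granule protease of promyelocytes, lay between 0.0897 and 0.188 FPKM. The marker profile of the libraries thus went against the promyelocyte label, and the cells are called by their label, NB4, only. The summed FPKM of the erythroid markers was 8240 and 7771 in the controls against 9224 and 8639 after knockdown, and that of the myeloid markers was 51.1 and 50.98 in the controls against 55.6 and 56.0 after knockdown. The called myeloid markers went in opposite directions, with LYZ at 79.9% and CFD at 135% of control (limma, adjusted p = 0.0289 and 0.0158). The part of these shifts in the results was not tested.

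Of the 9 citric acid cycle genes, 1 rose and 2 fell on CEBPG knockdown. IDH3G was at 129% of its control level, whereas OGDH and IDH3A were at 79.8% and 82.1% of their control levels. The other 6 genes, CS, IDH3B, SUCLG1, SUCLA2, FH and MDH2, did not pass an adjusted p under 0.05 in limma, and their means lay between 88.3% and 108% of control. The 3 called genes are 33.3% of the 9. Of all 10968 tested genes 20.9% were called in either direction, 10.9% higher and 9.99% lower. The control and knockdown libraries did not overlap for 9 of the 9 genes, which was the case for 64.8% of all tested genes. The median log2 fold change of the 9 was -0.12, against 0.015 over all tested genes, and the median absolute log2 fold change was 0.16 against 0.15. In a bulk sample, fewer cells of a type and less RNA per cell cannot be told apart. The labels do not say whether the 2 libraries of a group came from separate cultures, so p-values measure the spread between these libraries, which may be technical.

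**Figure D1:**
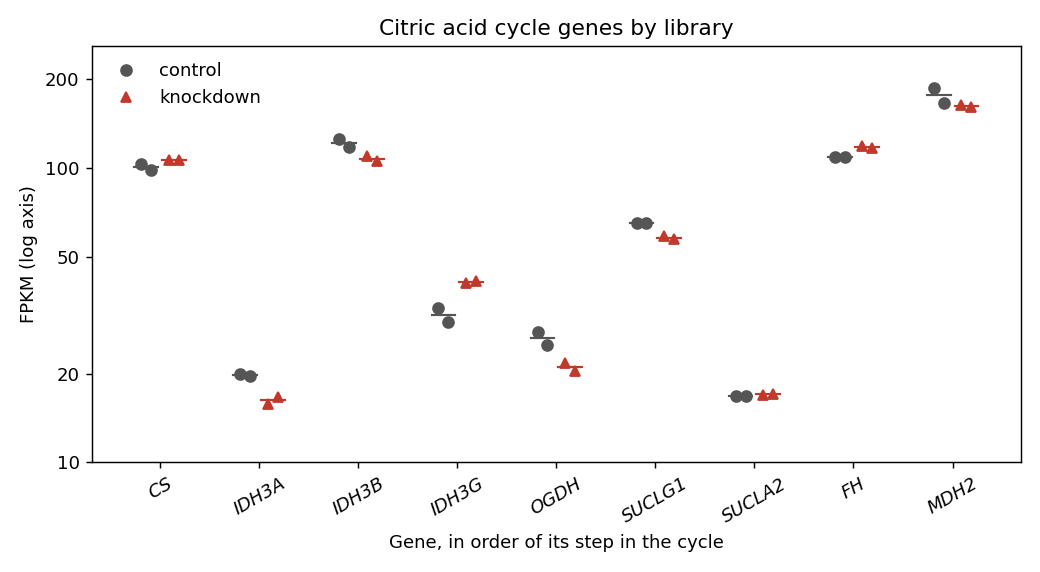
FPKM (log axis) of the 9 genes in each library. Circles are the 2 control and triangles the 2 knockdown libraries, and bars are means. IDH3A and OGDH sit lower and IDH3G higher in the knockdown libraries, while the differences of CS, SUCLA2 and FH are small beside the range between genes.

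FPKM is scaled per length, so levels can be set side by side between genes. In the control libraries MDH2 stood highest with a mean of 177 ± 14.6 FPKM (SD, n = 2), followed by IDH3B, FH, CS, SUCLG1, IDH3G, OGDH, IDH3A and SUCLA2, the last at 16.8 ± 0.00496 FPKM (SD, n = 2). No neighbours in that order overlapped between their 2 control libraries. In the knockdown libraries FH stood above IDH3B, IDH3B and CS overlapped (means of 108 and 107 FPKM), and IDH3A was the lowest of the 9. The highest gene was between 9.72 and 11.2 times the lowest in each library. The 9 genes held 0.188% of FPKM in both controls, against 0.178% and 0.181% after knockdown.

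NAD-dependent isocitrate dehydrogenase converts isocitrate to 2-oxoglutarate and is built from the catalytic alpha subunit (IDH3A) with the beta (IDH3B) and gamma (IDH3G) subunits. The subunit genes went in different directions. IDH3A lies on chromosome 15 at positions 78131498 to 78171945, plus strand (GRCh38, GENCODE 44). It was at 19.9 and 19.6 FPKM in the controls against 15.8 and 16.6 FPKM after knockdown. The knockdown values were both under the control values. The difference was -0.27 ± 0.062 on the log2 scale (SE; limma, adjusted p = 0.026).

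IDH3G lies on chromosome X at positions 153785766 to 153794512, minus strand. It was at 33.5 and 29.98 FPKM in the controls against 40.6 and 41.2 FPKM after knockdown. The knockdown values were both over the control values, and the log2 difference was 0.36 ± 0.069 (SE; limma, adjusted p = 0.0153). IDH3B lies on chromosome 20 at positions 2658395 to 2664219, minus strand. It was the most abundant of these subunit genes, at 126 and 118 FPKM in the controls against 109.8 and 105 FPKM after knockdown. The knockdown libraries were the lower ones, but the log2 fold change of -0.18 (95% interval -0.32 to -0.031) did not pass the threshold (limma, adjusted p = 0.0838).

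Ratios within a library do not depend on how libraries are scaled. The ratio of IDH3G to IDH3A was 1.68 and 1.53 in the controls against 2.57 and 2.48 after knockdown. It was thus higher in both knockdown libraries, a difference of 0.65 on the log2 scale. The ratio of IDH3G to IDH3B was 0.266 and 0.254 in the controls against 0.369 and 0.391 after knockdown, again without overlap. That of IDH3B to IDH3A lay between 6.01 and 6.32 in the control and between 6.34 and 6.95 in the knockdown libraries, so it moved least of the 3 ratios. These ratios are given as descriptions: with 2 against 2 libraries an exact permutation test cannot give a 2-sided p below 0.333.

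**Figure D2:**
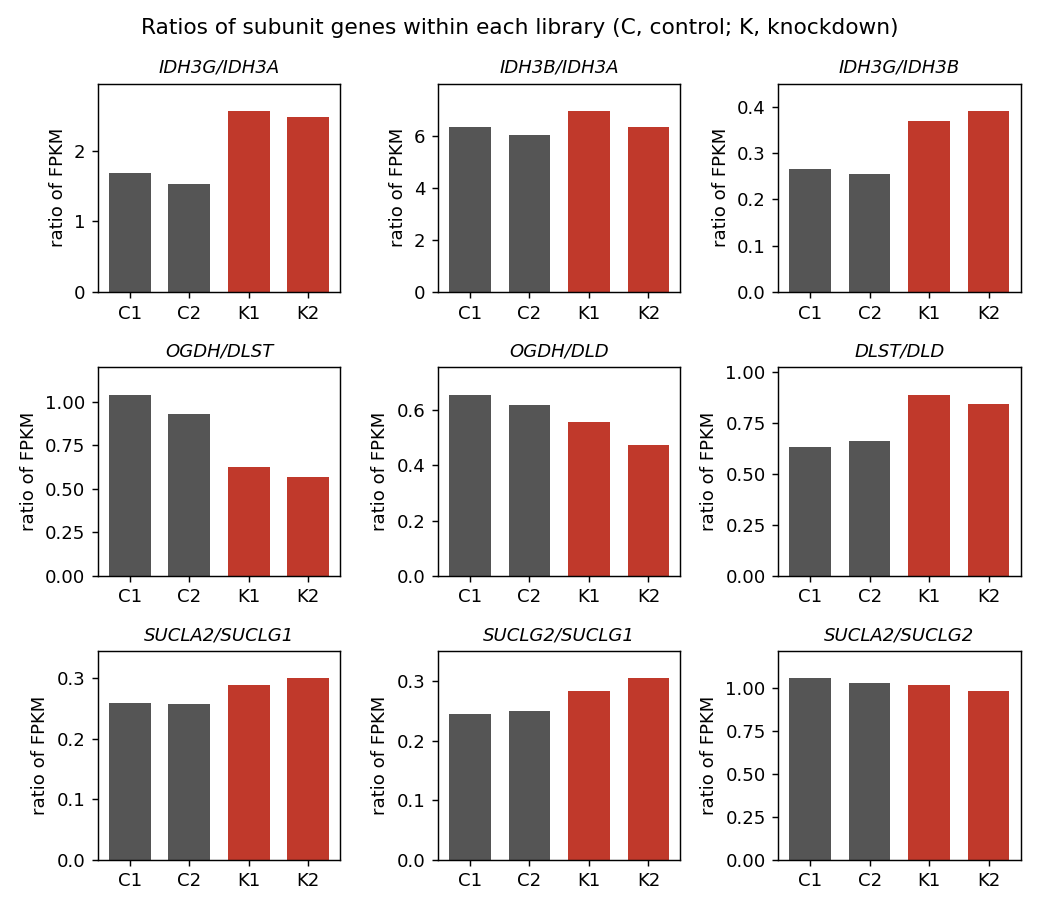
Ratio of FPKM between subunit genes of one enzyme, per library (C1 and C2, control libraries; K1 and K2, knockdown libraries), with bars from 0. The IDH3G to IDH3A ratio averages 1.60 in the control and 2.52 in the knockdown libraries, and the OGDH to DLST ratio falls from 0.986 to 0.597 on average.

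OGDH encodes the component of the 2-oxoglutarate dehydrogenase complex that decarboxylates 2-oxoglutarate. The complex also holds the succinyl-transferring component DLST and the lipoamide-oxidising component DLD, which is shared with other complexes. OGDH lies on chromosome 7 at positions 44606572 to 44709066, plus strand. It was at 27.7 and 25.03 FPKM in the controls against 21.7 and 20.3 FPKM after knockdown. Both knockdown libraries were lower, with a log2 difference of -0.31 ± 0.073 (SE; limma, adjusted p = 0.027). Among the 9 genes this was the lowest log2 fold change.

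DLST moved the other way. It rose from 26.6 and 26.9 FPKM to 34.6 and 35.97 FPKM, a log2 fold change of 0.39 (limma, adjusted p = 0.00667). DLD overlapped between the groups, at 42.1 and 40.5 FPKM against 38.9 and 42.8 FPKM. The ratio of OGDH to DLST was 1.04 and 0.932 in the controls against 0.628 and 0.566 after knockdown, a difference of -0.72 on the log2 scale. OGDH and DLST were therefore at like levels in the control libraries, and OGDH was the lower one in both knockdown libraries.

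Succinyl-CoA synthetase makes ATP or GTP as succinyl-CoA is split. Its alpha subunit, SUCLG1, pairs with either SUCLA2, the ADP-forming beta subunit, or SUCLG2, the GDP-forming one. SUCLG1 lies on chromosome 2 at positions 84423528 to 84460045, minus strand. It was at 64.8 and 65.1 FPKM in the controls against 58.7 and 57.2 FPKM after knockdown. The knockdown libraries were lower by several times the gap between replicates, yet the log2 fold change of -0.16 (95% interval -0.29 to -0.032) was not called (limma, adjusted p = 0.0785).

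SUCLA2 lies on chromosome 13 at positions 47745736 to 48037968, minus strand. It was listed at 16.8 and 16.7 FPKM in the controls against 16.9 and 17.1 FPKM after knockdown. The log2 difference was 0.022 (95% interval -0.12 to 0.16; limma, adjusted p = 0.816). It was 0.0087 with median-ratio scaling and 0.0015 with columns scaled to one sum. The knockdown libraries were the higher ones by a margin of little size. SUCLG2 was at 15.9 and 16.3 FPKM in the controls against 16.6 and 17.4 FPKM after knockdown, and was not called (limma, adjusted p = 0.409). The ratio of SUCLA2 to SUCLG1 was 0.258 and 0.257 in the controls against 0.289 and 0.299 after knockdown. The ratio between both beta subunits, SUCLA2 to SUCLG2, stayed between 0.983 and 1.06 in the 4 libraries.

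The remaining genes of the 9 encode enzymes made from a single gene. CS, citrate synthase, joins acetyl-CoA to oxaloacetate and opens the cycle. CS lies on chromosome 12 at positions 56271699 to 56300391, minus strand, and was at 104 and 98.4 FPKM in the control and 107 FPKM in both knockdown libraries. The groups did not overlap, but the gap between the groups was smaller than that between the control libraries, and the log2 difference was 0.079 (95% interval -0.056 to 0.21; limma, adjusted p = 0.354). It was 0.12 without control 1 and 0.042 without control 2.

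FH, fumarate hydratase, forms malate from fumarate and is a tumour suppressor in hereditary leiomyomatosis and renal cell cancer. FH lies on chromosome 1 at positions 241497511 to 241519799, minus strand, and was at 109 FPKM in both controls against 119 and 117 FPKM after knockdown. The log2 difference of 0.11 (95% interval -0.017 to 0.24) was not called (limma, adjusted p = 0.184). MDH2, mitochondrial malate dehydrogenase, regenerates oxaloacetate and closes the cycle. MDH2 lies on chromosome 7 at positions 76048051 to 76067508, plus strand, and was at 187 and 167 FPKM in the controls against 164 and 161 FPKM after knockdown. The spread of the control libraries was wider than the distance between the groups, and the log2 difference was -0.12 (95% interval -0.29 to 0.049; limma, adjusted p = 0.267). It was -0.035 without control 1 and -0.20 without control 2 (limma, adjusted p = 0.721 and 0.0704).

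**Figure D3:**
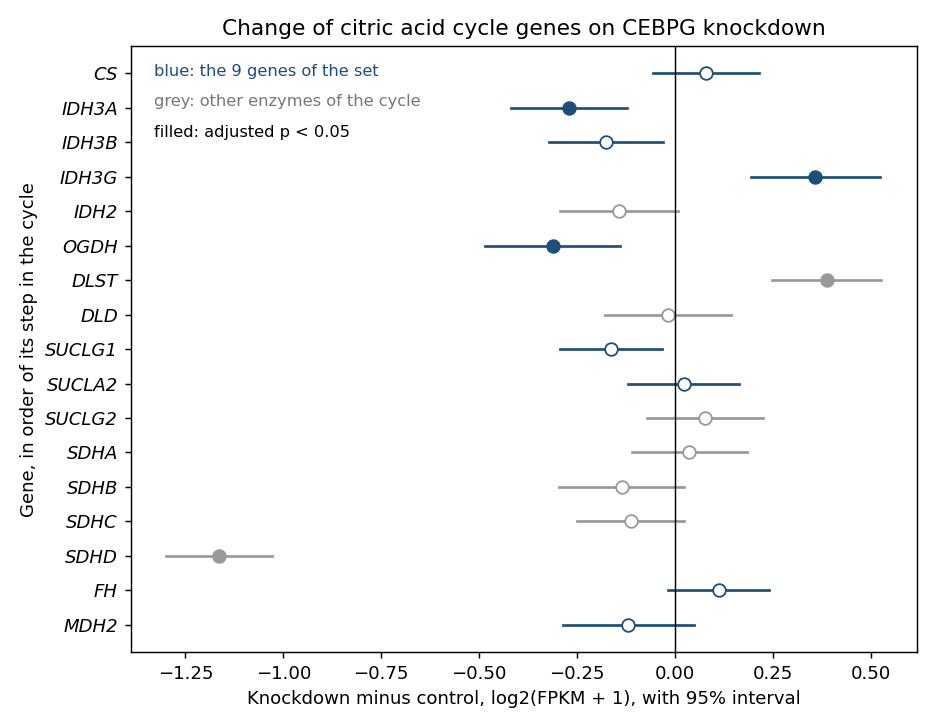
Log2 fold change (knockdown minus control, on the log2(FPKM + 1) scale) with its 95% interval from limma, in the order of the steps of the cycle. Blue marks the 9 genes and grey other enzymes of the cycle, and filled points passed an adjusted p under 0.05. IDH3A (-0.27) and OGDH (-0.31) lie left of 0 and IDH3G (0.36) and DLST (0.39) right of it, with SDHD (-1.16) far to the left.

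Each library was left out in turn. Without knockdown 1 and without knockdown 2, where the lone knockdown library is assumed to vary like the control group, calls over all genes fell from 2288 to 809 and 865, and none of the 9 genes was called in limma, with 3 of the 9 at an unadjusted p under 0.05 each time. IDH3G was then at 0.37 (adjusted p = 0.0795) and 0.35 (0.0838), OGDH at -0.36 (0.0824) and -0.27 (0.138), and IDH3A at -0.24 (0.154) and -0.30 (0.0822). Without control 1, IDH3G alone was called, with OGDH at -0.24 (adjusted p = 0.0704) and IDH3A at -0.26 (0.0603). Without control 2, IDH3G and OGDH were called, and IDH3A was at -0.28 (adjusted p = 0.0531). The direction of each of the 9 genes was kept in these 4 fits. With median-ratio scaling and with columns scaled to one sum IDH3B and SUCLG1 were also called lower, which made 5 of 9, while calls over all genes rose to 2687 and 2676. With no filter on low values none was called, with 6 of the 9 at an unadjusted p under 0.05 (limma). Over all 16504 genes in that fit, 882 were called and 4441 were at an unadjusted p under 0.05 (limma). Without a mean trend OGDH was not called (limma, adjusted p = 0.0503).

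CS, IDH3A, SUCLG1, SUCLA2 and FH were each listed as 1 transcript, and the other 4 genes as 2 to 4 transcripts. The division of reads between transcripts of a gene was made by the authors' quantifier and is uncertain. For OGDH it differed between replicates. NM_001165036 was at 17.5 and 9.58 FPKM in the controls against 6.35 and 9.42 FPKM after knockdown. NM_002541 was at 9.59 and 15.1 FPKM in the controls against 14.97 and 10.5 FPKM after knockdown. NM_002541 was thus high in 1 library of each group. It was the more abundant of the pair except in control 1, and took between 34.7% and 69.02% of the OGDH total. Neither was called (limma, adjusted p = 0.365 for NM_001165036 and 0.937 for NM_002541). On the listed values the fall lay in NM_001165036, at a log2 fold change of -0.68 without overlap of the groups, against 0.053 for NM_002541. As the division is uncertain, the fall was called for the summed total only.

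IDH3G was made up of NM_004135, at 22.7 and 22.6 FPKM in the controls against 22.2 and 29.1 FPKM after knockdown, and NM_174869, at 10.8 and 7.35 FPKM in the controls against 18.4 and 12.1 FPKM after knockdown. The extra IDH3G signal lay in NM_174869 in knockdown 1 and mostly in NM_004135 in knockdown 2. Neither transcript was called (limma, adjusted p = 0.586 for NM_004135 and 0.286 for NM_174869). Of IDH3B, NM_006899 held at least 96.3% of the total in each library. Of MDH2, NM_005918 held between 87.8% and 89.2%, and the non-coding NR_104165 most of the rest.

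**Figure D4:**
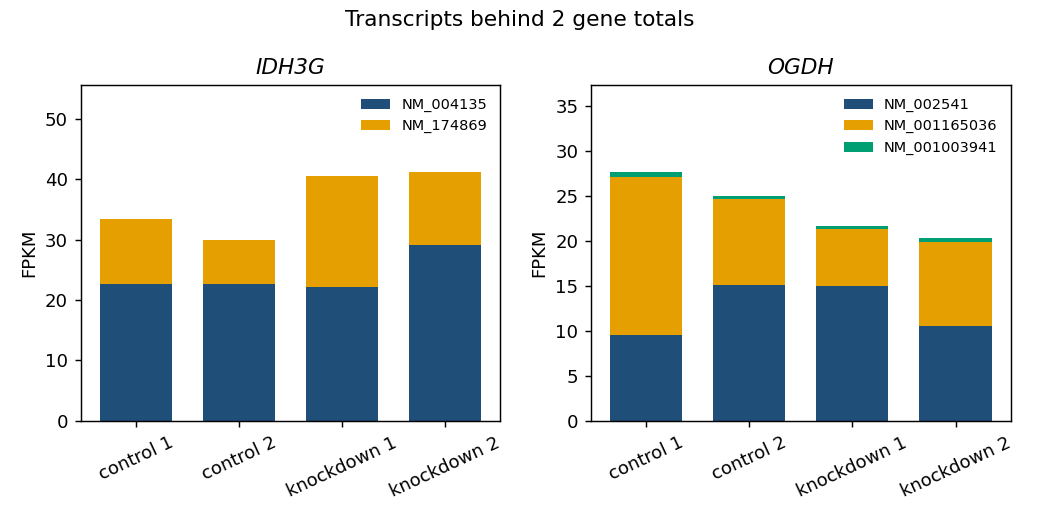
FPKM of each listed transcript of IDH3G and OGDH, stacked to the gene total, per library. The totals separate the groups, whereas the share of each transcript differs between replicates, from 34.7% to 69.02% for NM_002541 of OGDH.

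Some of these genes share sequence with others. In GENCODE 44, pseudogenes are named for SUCLA2 (3), CS (2) and FH (1), and reads could be shared with them. Exons of IDH3A overlap those of ACSBG1 and CIB2 on the opposite strand by 2608 and 38 bases, and exons of IDH3G overlap those of SSR4 by 267 bases. The sources used here do not state that reads were counted by strand, so reads in these stretches cannot be assigned to one gene. ACSBG1 was at 0.130 FPKM or less in every library and CIB2 at 1.80 FPKM or less, far under IDH3A. SSR4 was at 183 and 163 FPKM in the controls against 208 and 189 FPKM after knockdown, several times the level of IDH3G, with a log2 fold change of 0.20 that was not called (limma, adjusted p = 0.113). The part of SSR4 reads in the IDH3G value was not tested. The start of MDH2 lies 47 bases from that of STYXL1, on the opposite strand. STYXL1 rose from 20.9 and 19.2 FPKM to 28.3 and 25.6 FPKM (limma, adjusted p = 0.0132) while MDH2 was not called.

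Promoters were read for 8 of the 9 genes from a RefSeq table (GRCh38.p14) that holds 250 bases before to 50 after each start. No promoter was available for OGDH, which is among the called genes. For IDH3A and SUCLA2 the RefSeq start lies inside the GENCODE bounds given above, so the windows do not describe the outer starts. NRF1, an activator of many nuclear genes for mitochondrial proteins, binds a GC-rich palindrome, which was searched on both strands with 1 free base. It was present in 3 of the 8 promoters, those of IDH3A, IDH3G and SUCLA2, and in 5.78% of all 35116 promoters. The 30 bases around each site are shown because the 3 genes hold the same motif and differed in their change, with IDH3A lower, IDH3G higher and SUCLA2 not called. They lie at chr15:78149342-78149371 (plus strand), chrX:153794418-153794447 (minus strand) and chr13:48001292-48001321 (minus strand). Capitals mark the NRF1 motif, which begins 10, 62 and 38 bases before the RefSeq start.
IDH3A: cgtggggtggGCGCTTGCGCactgccgctg
IDH3G: gtgcgaccgcGCGCGTGCGCagtaccgggt
SUCLA2: tgtcgcctgtGCGCCTGCGCgcggcgccga

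The composite C/EBP-ATF motif TGATGNAAN, at which CEBPG can pair with ATF4, and the C/EBP motif TTGCNNAA were in none of the 8 windows, against 3.61% and 10.5% of all promoters. The CCAAT box CCAAT was in 5 of the 8 (CS, FH, IDH3G, SUCLA2 and SUCLG1), against 34.6% of all promoters. A match or its absence describes the letters of these windows only, and no binding was measured here.

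Other enzymes of the cycle were read from a list of 9 further genes, of which OGDHL was below the filter. Of the 8 tested, 1 rose (DLST) and 1 fell (SDHD), which is 25% against the 20.9% of all tested genes, with a median log2 fold change of -0.066 against 0.015. SDHD, a membrane anchor of succinate dehydrogenase, was at 91.8 and 88.98 FPKM in the controls against 40.5 and 39.1 FPKM after knockdown. It stood below its control level in both knockdown libraries by far more than any of the 9 genes, at -1.16 on the log2 scale (limma, adjusted p = 0.00035). The other subunits, SDHA, SDHB and SDHC, were not called, at 0.037, -0.14 and -0.11 (limma, adjusted p = 0.706, 0.192 and 0.201). SDHB was at -0.065 without control 1 and -0.21 without control 2, and was called lower with columns scaled to one sum (limma, adjusted p = 0.0427). SDHC was at -0.0055 as its most abundant transcript. The ratio of SDHD to SDHC was 3.18 and 3.01 in the controls against 1.51 and 1.44 after knockdown. IDH2, the NADP-dependent mitochondrial isocitrate dehydrogenase, changed by -0.14 and was not called (limma, adjusted p = 0.153).

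Pyruvate enters the cycle through the mitochondrial pyruvate carrier and the pyruvate dehydrogenase complex. Of 12 genes of this entry in the table, 9 were tested, of which 1 rose and 2 fell, 33.3% against 20.9% of all tested genes, and the median log2 fold change was -0.15. MPC1, a carrier subunit, fell from 37.8 and 30.5 FPKM to 22.3 and 23.5 FPKM (-0.55; limma, adjusted p = 0.0132). Its most abundant transcript alone changed by -2.51 and was not called (limma, adjusted p = 0.368). DLAT, the acetyl-transferring component, fell by 0.29 as a log2 difference (limma, adjusted p = 0.0231), and PDHX, which anchors DLD in the complex, rose by 0.22 (0.0468). PDHX was not called with median-ratio scaling or with columns scaled to one sum (limma, adjusted p = 0.0503 and 0.0774).

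Of 12 tested genes that feed the cycle or carry its intermediates, 3 rose and 1 fell, again 33.3% against 20.9% of all tested genes (10.9% higher and 9.99% lower), with a median log2 fold change of -0.0058. With lists of this size these shares are given as descriptions. PC, pyruvate carboxylase, which forms oxaloacetate from pyruvate, fell from 8.96 and 8.01 FPKM to 6.23 and 5.94 FPKM (-0.42; limma, adjusted p = 0.0148). SLC25A10, the dicarboxylate carrier, rose from 23.3 and 21.1 FPKM to 36.8 and 36.9 FPKM (0.71; 0.00169). SLC25A1, the citrate carrier, and ME2, mitochondrial malic enzyme, rose by 0.27 and 0.35 (limma, adjusted p = 0.0376 and 0.016). In the 4 fits that each left out 1 library, SDHD and SLC25A10 stayed called. DLST was lost without knockdown 2 (limma, adjusted p = 0.0559) and MPC1 without knockdown 1 (0.0699). DLAT and PC were lost in every such fit but that without control 2, and PDHX in all 4. SLC25A1 was called only without control 1, and ME2 was lost without either knockdown library. With no filter on low values DLST, SDHD and SLC25A10 were still called, and the other genes named from these 3 lists were not. Without a mean trend PDHX and SLC25A1 were lost (limma, adjusted p = 0.0684 and 0.0717).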

How the data were processed

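Per the labels, total RNA was used with a TruSeq kit of Illumina. The study mapped filtered reads with HISAT, and the submitters' processing notes name HISAT2 2.0.5 and hg38. The values are FPKM, deposited as 29265 RefSeq transcript rows. The quantifier and annotation release were not given in the sources used here. Whole reads could not be recovered: among 1817 low genes with 1 transcript, the most common control ratio held 0.440%. Read depth was therefore unknown, and no counting interval was given.

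Rows without values (183) or without a symbol (164, 0.250% of FPKM) were left out, and 28918 rows were summed to 16504 symbols. Genes averaging 1 FPKM or more were tested on log2(FPKM + 1) in limma 3.58.1 (R 4.3.3), with a mean trend, no replicate block, 2-sided tests and Benjamini-Hochberg adjustment over all 10968 genes. The threshold was an adjusted p under 0.05, and intervals are 95% and unadjusted. Fold changes on this scale understate low genes. The study names DESeq2, a count test, which was not run because FPKM values are not counts. The fit was tested on simulated data. The members and lists were chosen with earlier results of these data known. Named genes were the 9 members, CEBPG, the other cycle enzymes and called genes of the other lists, and SSR4, STYXL1, ACSBG1 and CIB2, chosen as neighbours after their values were seen. PDK2, on the pyruvate list, was not analysed here, and 1 further cycle enzyme, beside the 9 other ones listed, is not reported here. Positions are from GENCODE 44. Figures were drawn with matplotlib 3.10.9.

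Alternatives were a pseudocount of 0.1, no filter, the replicate number as a block, 2 other scalings, no mean trend, transcript rows in place of gene sums, and fits that each left out 1 library.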

Additional observations from a re-analysis of the deposited data

How the results depend on the processing

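The 3 calls among the 9 genes were the same with a pseudocount of 0.1, and 2 of them (IDH3A and IDH3G) held without a mean trend, where OGDH had an adjusted p of 0.0503 (limma). The number was 0 with no filter and 0 for the most abundant transcript of each gene (6 and 3 at an unadjusted p under 0.05), 5 with median-ratio scaling, 5 with columns scaled to one sum, and 0 to 2 when 1 library was left out. Libraries with the same replicate number share only that number in the labels, and the correlation of their deviations from the group means was 0.101. The replicate number as a block gave 5 of the 9 genes, 3440 of all genes and 16 of the other listed genes. All genes called (2288) were 882 with no filter, 25 for transcripts (3213 at an unadjusted p under 0.05), and 809 to 1931 with 1 library left out. Of the other listed genes 13 were called, 6 with no filter, and 5 to 11 with 1 library left out. CEBPG changed by -1.15 as its main transcript (limma, adjusted p = 0.0587) and by -1.23 to -1.05 with 1 library left out. Of 319 values of 29 named genes under the alternatives, 5 changed direction. SSR4, STYXL1, ACSBG1, CIB2, MDH1, ACO1 and GOT1 were not among these 29. DLD was at 0.087 as a transcript and -0.085 to 0.049 with 1 library left out, SDHA at -0.012 to 0.085 with 1 library left out, and the main OGDH transcript at 0.053. Scaling shifted the median of all genes by -0.012 and -0.019. The causes were not tested. With 2 libraries a group and unknown depth, the 95% interval excluded 0 for 5 of the 9 genes. By the same measure, an unadjusted p under 0.05 in limma, 4057 of all 10968 tested genes passed.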

Other observations

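Cytosolic enzymes that act on the same intermediates were read beside the mitochondrial ones. Of 5 such genes, 2 rose, none fell, and 3 were not called, against 10.9% of all tested genes called higher and 9.99% called lower. With 5 genes no direction was read from this count. ME1, the cytosolic NADP-dependent malic enzyme, was at 10.8 and 10.2 FPKM in the controls against 18.2 and 19.2 FPKM after knockdown, a log2 fold change of 0.78 (limma, adjusted p = 0.00135). IDH1, the cytosolic NADP-dependent isocitrate dehydrogenase, rose from 31.5 and 30.9 FPKM to 37.9 and 38.9 FPKM (0.29; limma, adjusted p = 0.0155), a call that was lost without knockdown 1 (0.086) and without knockdown 2 (0.102). MDH1, the cytosolic counterpart of MDH2, changed by 0.068, ACO1 by -0.032 and GOT1 by -0.25 (limma, adjusted p = 0.425, 0.806 and 0.0573). These 3 are named after their values were seen.

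Of 10 genes written as a list for mitochondrial content, 1 fell and none rose, with a median log2 fold change of -0.092, against 20.9% called and a median of 0.015 over all tested genes. TOMM40, the channel of the outer membrane translocase, fell from 144 and 132 FPKM to 91.8 and 86.6 FPKM (-0.62; limma, adjusted p = 0.00252). The other 9 lay between -0.19 and 0.12 and were not called. Of 4 assembly factors of succinate dehydrogenase, SDHAF2, which helps to attach flavin to SDHA, rose by 0.29 (limma, adjusted p = 0.0406). It was not called with no filter on low values, without a mean trend (limma, adjusted p = 0.11 and 0.0703), without control 2, where it was at 0.20, or without either knockdown library, where it was at 0.25 and 0.33.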
